A study of Mus musculus with 8 samples.

Results

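Polycomb and trithorax proteins are chromatin regulators that keep genes off or on through cell divisions. The 39 genes described here were chosen by name as members of these complexes, and all 39 were measured among the 12294 genes of the table. They were followed in I1DN leukemic progenitor cells, sorted as cKit+/Cd11b- from mice that had been transplanted with I1DN leukemic cells. The mice were given vehicle, AG120, also called ivosidenib, which inhibits mutant IDH1, or AZA, which is azacitidine and traps DNA methyltransferases, or AG120_AZA, both together, for 5 days. Each of the 4 groups had 2 libraries. The labels do not spell out the alleles behind the name I1DN, nor the sex or age of the mice, and every group, vehicle included, carries the same leukemic cells.

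Polycomb repressive complex 2 (PRC2) methylates a lysine of histone H3 that marks silent genes, through the catalytic subunits Ezh2 or Ezh1 with Eed and Suz12. Polycomb repressive complex 1 (PRC1) ubiquitinates histone H2A through Ring1 or Rnf2, paired with a PCGF protein, and its canonical form reads the PRC2 mark through a CBX protein. Trithorax-group proteins act the other way: the Kmt2 and Setd1 enzymes, in COMPASS complexes, methylate another lysine of histone H3 at active promoters and enhancers. In blood cells the balance between them sets stem cell self-renewal, and several members, among them Kmt2a, Ezh2 and Asxl1, are recurrently mutated or rearranged in myeloid leukemia.

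Levels are log2 CPM, the log2 of a gene's counts scaled to a common library total (CPM). The libraries had been brought to one distribution, so their depth is unknown. A gene's place among the distinct values of a library gives a lower bound on its reads, counted in steps above the lowest value. The median gene lay 105 to 149 steps up, depending on the library. Phf19, Ring1 and Cbx2 were the 3 members under 10 steps in some library, at 2, 9 and 4. Replicates correlated across genes at Pearson r = 0.921 to 0.936, where genes are not independent replicates. On the first principal component the libraries with AG120 lay between 3.28 and 88.0, and those without it between -59.7 and -25.3. AG120_AZA replicate 2 lay farthest out, at 88.0, and AG120 replicate 2 stood at 3.28. Kit, a sort marker, stood at 4.26 to 6.65 log2 CPM over the 8 libraries. Itgam, which encodes CD11b and was selected against, stood at 2.10 to 4.53. No label ties a library to its own mouse, and the p-values therefore rest on library-to-library spread, part of which may be technical.

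The promoters of 3 members are shown because these genes mark the span of the data: Cbx7 is the member that passed a test, Rnf2 carried one of the smallest p-values in the combination, and Ezh2 had small changes throughout. Each run is the 250 bases upstream of the RefSeq transcript start in GRCm38.p6, on the minus strand, written 5′ to 3′ with every CG dinucleotide in capitals. They lie at chr15:79932647-79932896 for Cbx7, chr1:151500992-151501241 for Rnf2 and chr6:47595031-47595280 for Ezh2. In GENCODE M21 the spans of Cbx7 and Ezh2 reach to 79971119 and 47595341, so these windows lie inside the annotated genes. The Rnf2 window lies outside its gene span. For Cbx7 and Ezh2 the annotations thus differ in where the gene begins.
Cbx7: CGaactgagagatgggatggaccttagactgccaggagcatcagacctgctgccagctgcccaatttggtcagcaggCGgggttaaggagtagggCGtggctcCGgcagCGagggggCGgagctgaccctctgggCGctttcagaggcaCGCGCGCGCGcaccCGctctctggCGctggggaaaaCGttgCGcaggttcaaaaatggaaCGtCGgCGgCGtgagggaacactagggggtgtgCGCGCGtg
Rnf2: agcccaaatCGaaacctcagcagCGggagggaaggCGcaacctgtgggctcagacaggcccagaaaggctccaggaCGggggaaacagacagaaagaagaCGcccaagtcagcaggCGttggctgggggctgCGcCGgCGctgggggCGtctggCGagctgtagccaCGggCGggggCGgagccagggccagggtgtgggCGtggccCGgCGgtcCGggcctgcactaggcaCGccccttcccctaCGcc
Ezh2: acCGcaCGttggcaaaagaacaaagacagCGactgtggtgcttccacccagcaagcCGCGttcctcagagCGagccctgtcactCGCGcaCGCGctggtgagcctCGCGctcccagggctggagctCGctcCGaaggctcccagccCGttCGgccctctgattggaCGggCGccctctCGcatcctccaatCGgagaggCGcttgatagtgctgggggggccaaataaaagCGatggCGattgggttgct
The Cbx7 run holds 23 CG dinucleotides, as does the Ezh2 run, and the Rnf2 run holds 20. RefSeq gave 43 such windows for 32 of the members, with a median of 22 CG and a range of 1 to 48. Over all 32851 windows of the same length the median was 6, and 39 of the 43 member windows held at least that many. The GATA motif AGATAA (searched on both strands) was in 0 of the 43 member windows and in 9.99% of all windows. The E-box CACGTG was in 6 of them (14.0%) and in 6.02% of all windows, and the E2F motif TTCCCGCC in 2 (4.65%) and in 1.86%. The motif shares were not compared at matched CG content, and some members gave several windows. A match describes these letters only and is not evidence of binding.

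Cbx7, the CBX protein through which canonical PRC1 reads the PRC2 mark in stem cells, fell with AG120, and it was the member of the 39 that passed the test. Its level was 6.23 and 5.63 log2 CPM in the vehicle libraries and at 6.31 and 5.65 with AZA alone. With AG120 it stood at 4.67 and 5.08, and with both drugs at 5.04 and 4.37. The 4 libraries with AG120 all lay below the 4 without it. Over both AZA levels Cbx7 fell by 1.16 ± 0.24 (SE) on the log2 scale (limma adjusted p = 0.0154; lower in 4 of 4 AG120 libraries), from 5.95 ± 0.37 (SD, n = 4) to 4.79 ± 0.33. The difference was -1.05 ± 0.34 in AG120 against vehicle (adjusted p = 0.222) and -1.27 ± 0.34 in AG120_AZA against AZA (adjusted p = 0.0799), neither of which passed. The interaction was -0.22 ± 0.49 (95% interval -1.29 to 0.85, adjusted p = 0.943), and the change with AZA over both AG120 levels was -0.06 (95% interval -0.57 to 0.46).

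The Cbx7 call was lost without AG120 replicate 1 (adjusted p = 0.0698), without AZA replicate 1 (0.060) and without a mean-variance trend (0.0801), and over all alternatives its adjusted p ran from 0.0124 to 0.0801. Cbx7 lies on the minus strand at chr15:79915807-79971119 in GENCODE M21 (GRCm38). Its last 100 bases overlap the end of Apobec3, an antiviral cytidine deaminase gene on the plus strand, and no source used here says whether reads were assigned by strand. Apobec3, looked up after the values of Cbx7 were seen, also fell with AG120, by 0.74 ± 0.17 (adjusted p = 0.0285). It ranged from 8.26 to 9.08 log2 CPM without AG120 and from 7.63 to 8.27 with it. Reads of the overlap could belong to either gene, and the part of Apobec3 in the Cbx7 result was not tested.

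**Figure D1:**
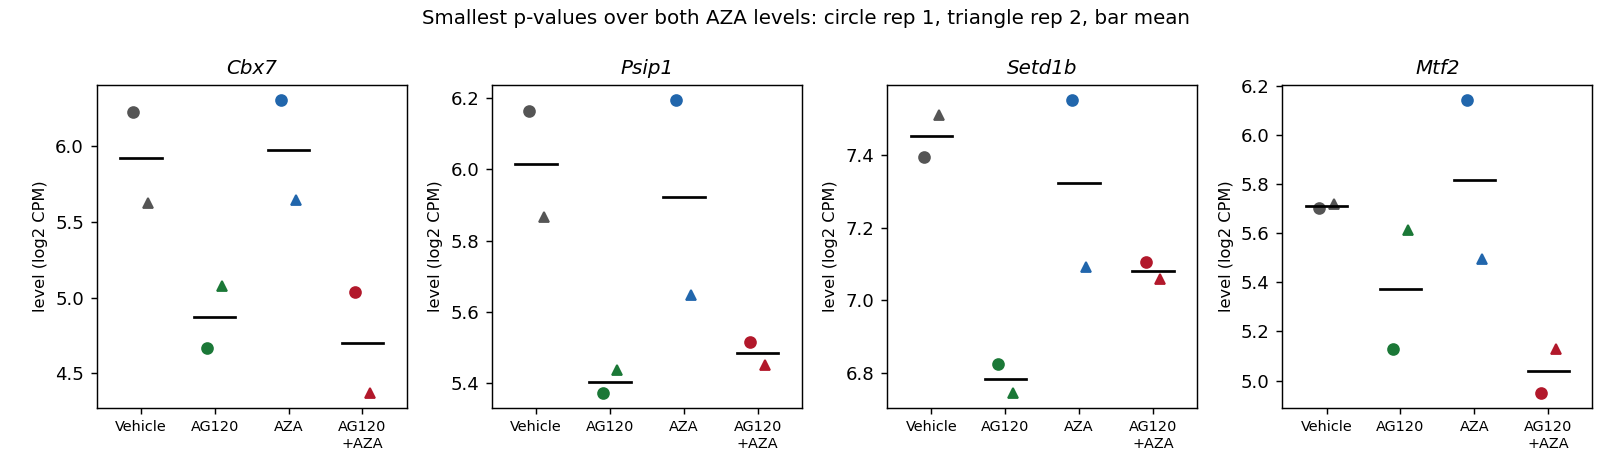
Level in log2 CPM (y axis) of Cbx7, Psip1, Setd1b and Mtf2 in the 4 groups (x axis); circles are replicate 1, triangles replicate 2 and bars the mean of the 2 libraries. Cbx7 lies between 5.63 and 6.31 without AG120 and between 4.37 and 5.08 with it; each panel has its own y range.

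Markers of other cell types moved with AG120 in the same libraries. In these counts a gene rose or fell only where it was called, as 5.85% of all genes were. The lists were chosen with earlier results of these data known, so the counts describe these lists only. Over both AZA levels 6 of the 7 measured stem and progenitor genes fell, out of 9 listed, with a median log2 change of -1.77. Their summed level was 755 to 1201 CPM in the vehicle and AZA libraries and 270 to 358 CPM in the AG120 and AG120_AZA libraries. Kit, the receptor used in the sort, also fell with AG120 over both AZA levels, by 1.33 ± 0.27 (limma adjusted p = 0.0162), and fell in AG120_AZA against vehicle by 2.06 ± 0.37 (adjusted p = 0.0148) and against AZA by 1.71 ± 0.37 (adjusted p = 0.0393). Of 9 basophil, mast cell and eosinophil genes, 6 rose and 0 fell, with sums of 922 to 1454 CPM without AG120 and 2316 to 3672 CPM with it. Of 11 erythroid genes 8 rose and 0 fell, with 9 positive and 2 negative estimates. The negative ones were Hba-a1 (-0.79) and Hbb-bs (-0.80), and neither was called. Hbb-bs was lower in the AG120 libraries (9.64 and 7.39 log2 CPM) than under vehicle (10.62 and 10.10). Under both drugs it reached 11.33 and 11.20, and under AZA 10.40 and 11.63. The sums of the erythroid genes overlapped, at 1354 to 3621 CPM without AG120 and 786 to 3781 CPM with it. Of 8 neutrophil genes 1 fell, and all 8 had negative estimates, with a median of -1.76. Their median was -0.29 in AG120 against vehicle, where 0 were called, and 1.77 in AZA against vehicle, where 0 were called. In AG120_AZA against AZA it was -3.31, and 5 were called lower. The median interaction was -2.74, with 0 called. Their summed levels were 2848 to 15340 CPM without AG120 and 1060 to 6329 CPM with it. Of the 5 measured monocyte and dendritic genes 2 fell, with 2 positive and 3 negative estimates. Of 4 primary granule genes 0 were called, and all 4 had negative estimates. No marker on these lists was at the lowest value in all libraries. In bulk RNA, fewer cells of a type and less RNA per cell cannot be told apart, and the part of these shifts in the Cbx7 result was not tested.

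The effect of AG120 over both AZA levels was the comparison with the most calls, and the chromatin regulators were not prominent in it. Limma called 1 of 39 members (Cbx7), where 5.85% of all genes were called, 2.47% on the lower side like Cbx7. At an unadjusted p below 0.05 there were 7 of 39, or 17.9%, where 22.9% of all genes were. Of these 6 were lower (10.6% of all genes) and 1, Bap1, was higher (12.2%). The members whose libraries with and without AG120 did not overlap numbered 3, namely Cbx7 and Psip1 on the lower side and Pcgf6 on the higher, against 14.0% of all genes (5.99% lower and 8.0% higher). The median log2 change of the members was -0.11 and that of all genes 0.01. In all, 27 of the 39 had negative changes, or 69.2%, against 49.3% of all genes. The median of the members ran from -0.18 without AG120_AZA replicate 1 to -0.02 without AG120_AZA replicate 2. Their median absolute change was 0.18, and over all genes it was 0.35.

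Psip1, Setd1b and Mtf2 followed Cbx7 in the AG120 main effect, and none of them passed. Psip1 encodes LEDGF, which tethers Kmt2a with Men1 to chromatin. It was at 6.16 and 5.87 log2 CPM in the vehicle libraries, 5.37 and 5.44 with AG120, 6.19 and 5.65 with AZA and 5.52 and 5.45 with both. The 4 AG120 libraries lay below the 4 others, by a log2 difference of -0.52 ± 0.18 (limma adjusted p = 0.103). Setd1b, a COMPASS methyltransferase, stood at 7.39 and 7.51 in vehicle and 6.82 and 6.74 with AG120. With AZA it was 7.55 and 7.09, and with both drugs 7.11 and 7.06, so that the AZA and AG120_AZA libraries overlapped. Its difference was -0.45 ± 0.16 over both AZA levels (adjusted p = 0.111) and -0.67 ± 0.21 in AG120 against vehicle (adjusted p = 0.212). Mtf2, which guides PRC2 to CG-rich DNA, stood at 5.70 and 5.72 in vehicle, 5.13 and 5.61 with AG120, 6.14 and 5.49 with AZA and 4.95 and 5.13 with both. Its difference was -0.56 ± 0.21 (adjusted p = 0.133), and 1 AG120 library lay within the range of those without the drug. Psip1 overlaps Snapc3 by 11997 bases and Mtf2 overlaps Tmed5 by 2639 bases, each on the opposite strand. Snapc3 had a change of -0.20 with AG120 (adjusted p = 0.678) and Tmed5 of -0.09 (adjusted p = 0.816). Setd1b passed when AZA replicate 2 was left out (-0.59, adjusted p = 0.0419), and over its alternatives it passed in no other.

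**Figure D2:**
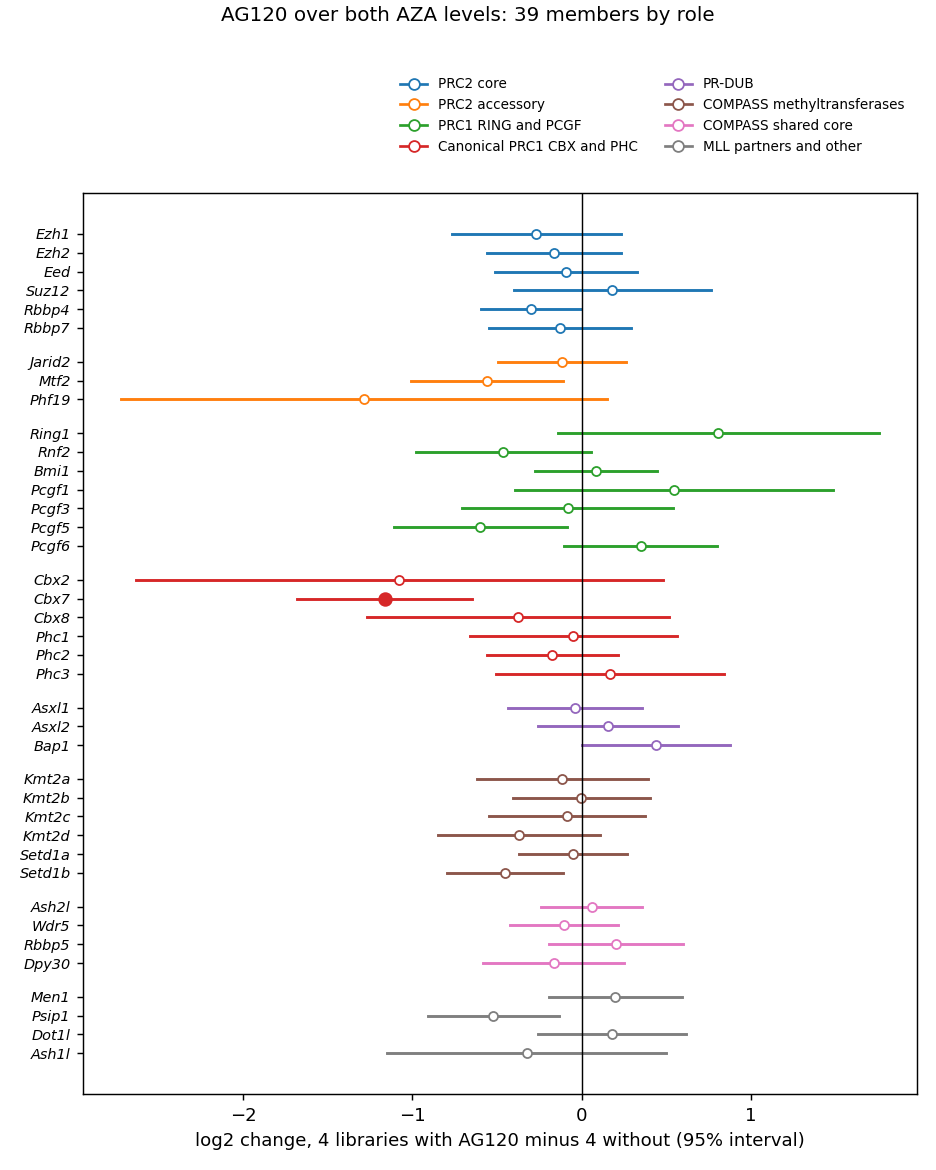
Log2 change with AG120 over both AZA levels (x axis) for each of the 39 members (y axis), coloured by role; points are limma estimates, lines 95% intervals, and a filled point marks an adjusted p below 0.05. Cbx7, at -1.16, is the filled point, and most intervals cross 0.

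No gene of the PRC2 core passed. Ezh2, the main catalytic subunit in dividing cells, measured 5.65 and 5.39 log2 CPM in the vehicle libraries, 5.63 and 5.19 with AG120, 5.54 and 5.30 with AZA and 5.08 and 5.33 with both. Both combination libraries lay below both vehicle libraries, and its log2 change with AG120 was -0.16 with a 95% interval of -0.56 to 0.23. Ezh1, the catalytic subunit more typical of resting cells, had a change of -0.27 (interval -0.77 to 0.23). The 6 core genes Ezh1, Ezh2, Eed, Suz12, Rbbp4 and Rbbp7 had changes between -0.30 and 0.18 with AG120 and between -0.24 and 0.11 with AZA, and 0 of 6 were called. Per library, Ezh1 minus Ezh2 ran from -0.61 to -0.14 without AG120 and from -0.76 to -0.22 with it, so the groups overlapped.

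None of the 3 PRC2 accessory genes, Jarid2, Mtf2 and Phf19, passed in any comparison. All 3 had negative estimates in AG120_AZA against vehicle, where 48.8% of all genes did. Phf19, which binds a methylated lysine of histone H3 and recruits PRC2, was at 1.41 and 2.51 log2 CPM in the vehicle libraries, 0.56 and 2.62 with AG120, 1.33 and 2.03 with AZA and -0.17 and -0.88 with both. The combination libraries were the lowest pair, at a log2 difference of -2.49 ± 0.88 from vehicle (limma adjusted p = 0.140), with as few as 2 steps above the lowest value. Jarid2, a PRC2 cofactor, had a difference of -0.38 there (95% interval -0.93 to 0.16), and its combination and vehicle libraries overlapped.

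None of the RING and PCGF genes of PRC1 passed in any comparison. Pcgf5, a PCGF protein of a variant PRC1, measured 4.83 and 5.00 log2 CPM in the vehicle libraries, 4.45 and 4.97 with AG120, 4.87 and 4.68 with AZA, and 3.79 and 3.78 with both. Both combination libraries lay below the 6 others, at -1.13 ± 0.30 from vehicle (limma adjusted p = 0.0686). It was the smallest adjusted p of the members in that comparison, and it did not pass. The other comparisons of the combination gave -0.92 ± 0.30 from AG120 (adjusted p = 0.384) and -0.99 ± 0.30 from AZA (adjusted p = 0.111). The interaction of Pcgf5 was -0.79 ± 0.42 (adjusted p = 0.802), so a combination effect beyond the sum of the drugs was not shown.

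Rnf2 (RING1B), the main ubiquitin ligase of PRC1, was at 7.07 and 6.84 log2 CPM in the vehicle libraries, 6.76 and 6.74 with AG120, 6.99 and 6.17 with AZA and 6.31 and 5.42 with both. The lowest library was AG120_AZA replicate 2, and the combination libraries straddled one AZA library. The difference from vehicle was -1.09 ± 0.33 (limma adjusted p = 0.0944), and it did not pass. Without AG120_AZA replicate 2 it was -0.65 (adjusted p = 0.533), and without AG120_AZA replicate 1 it was -1.54 (adjusted p = 0.0286). Each of these fits leaves 1 combination library, which is assumed to vary like the other groups. The 3′ end of Rnf2 overlaps that of Trmt1l on the other strand by 158 bases at chr1:151458004-151458161. Trmt1l, a gene related to a tRNA methyltransferase and looked up after the Rnf2 values, stood at 6.64 and 6.40 in vehicle and at 5.73 and 4.07 with both drugs. Its part in the Rnf2 values was not tested.

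Ring1, the paralog of Rnf2, measured 0.72 and 0.85 log2 CPM in the vehicle libraries, 1.86 in both AG120 libraries, 1.27 and 2.03 with AZA and 2.28 and 2.10 with both. The vehicle libraries were the lowest pair, and the difference of AG120_AZA from vehicle was 1.40 ± 0.62 (limma adjusted p = 0.223), at low counts. Bmi1, the PCGF protein of canonical PRC1 that is needed for stem cell self-renewal, stood at 5.41 and 5.78 in vehicle and between 5.77 and 6.04 in the 6 treated libraries. Its difference with AG120 was 0.08 (95% interval -0.28 to 0.44). Pcgf6, a PCGF protein of another variant PRC1, ranged from 4.01 to 4.40 without AG120 and from 4.44 to 4.74 with it. These groups did not overlap, and the difference of 0.35 ± 0.21 did not pass (adjusted p = 0.344). Pcgf3, also of a variant PRC1, and Pcgf1 had changes of -0.08 and 0.54 with AG120, and neither passed. The replicates of Pcgf1 were far apart, at 4.16 and 1.97 in vehicle.

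**Figure D3:**
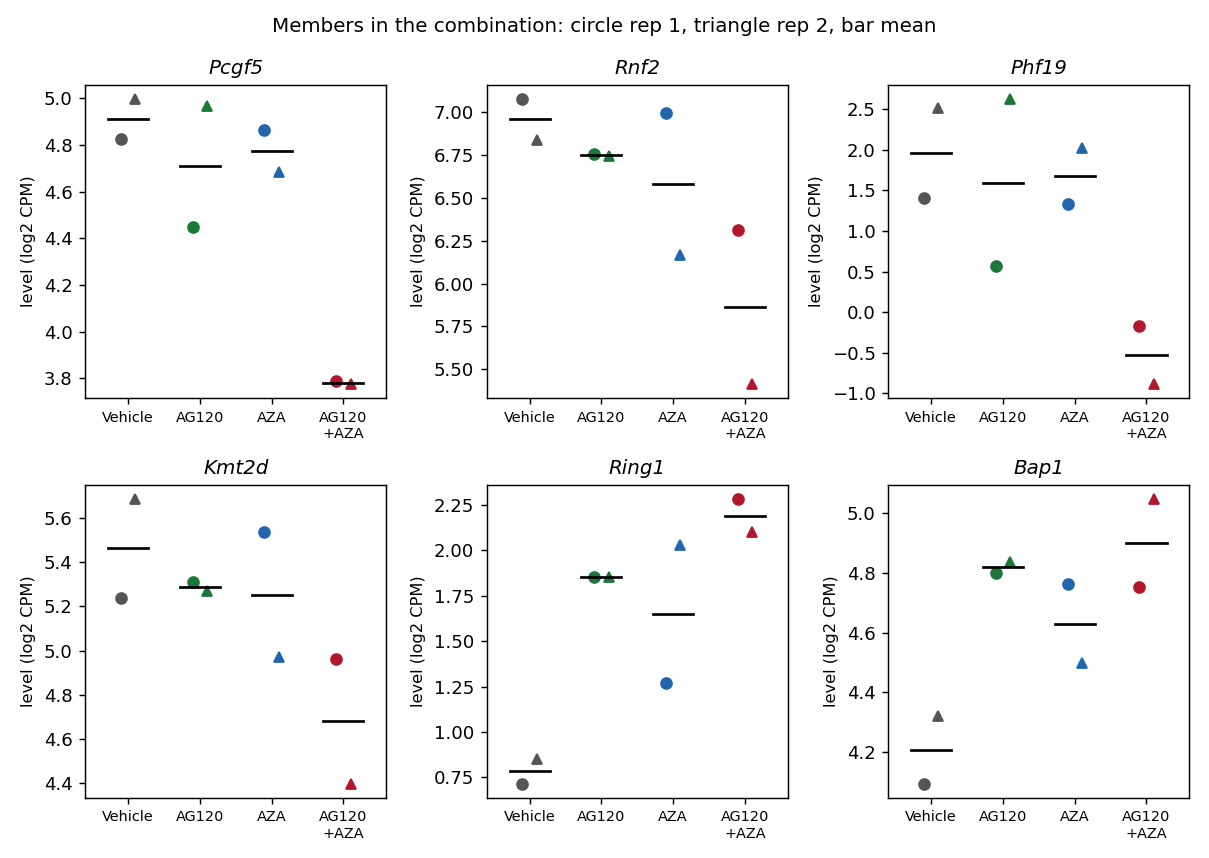
Level in log2 CPM (y axis) of Pcgf5, Rnf2, Phf19, Kmt2d, Ring1 and Bap1 in the 4 groups (x axis); circles are replicate 1, triangles replicate 2 and bars the mean of the 2 libraries. The first 4 genes are lowest on average with both drugs and the last 2 are lowest in vehicle; none passed, and each panel has its own y range.

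The other reading and scaffold subunits of canonical PRC1 did not pass in any comparison. Cbx8, a paralog of Cbx7, ranged from 2.91 to 4.41 log2 CPM without AG120 and from 2.24 to 3.65 with it, and Cbx2, another paralog, from 0.08 to 1.97 and from -1.31 to 0.72. Per library, Cbx7 minus Cbx8 ran from 1.90 to 3.04 without AG120 and from 1.43 to 2.13 with it. These ranges overlapped through AZA replicate 1, at 1.90, where Cbx8 stood at 4.41 (2.91 in AZA replicate 2). Phc1, Phc2 and Phc3 encode the polyhomeotic proteins that let PRC1 polymerise. Their log2 changes with AG120 were -0.05, -0.18 and 0.17. Phc2 lay lower in all 4 AZA libraries (5.21 to 5.75) than in the 4 others (5.86 to 6.24), by -0.39 ± 0.18 (limma adjusted p = 0.771).

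The Polycomb deubiquitinase PR-DUB, which removes the PRC1 mark from histone H2A, had no member that passed. Bap1, its catalytic subunit, was at 4.10 and 4.32 log2 CPM in the vehicle libraries, 4.80 and 4.84 with AG120, 4.76 and 4.50 with AZA and 4.75 and 5.05 with both. The 2 vehicle libraries were the lowest of the 8. The differences from vehicle were 0.61 ± 0.29 with AG120 (limma adjusted p = 0.398), 0.42 ± 0.29 with AZA (1.00) and 0.69 ± 0.29 with both (0.194), and these 3 share the vehicle libraries. Asxl1, a partner of Bap1 that is often truncated in myeloid leukemia, ranged from 6.48 to 7.30 over the 8 libraries, with a change of -0.04 with AG120. Asxl2, its paralog, ranged from 4.97 to 5.62, with a change of 0.16. Asxl1 minus Asxl2 ran from 1.10 to 2.23 without AG120 and from 1.35 to 1.79 with it.

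Among the COMPASS methyltransferases all 6 had negative estimates with AG120, between -0.45 and -0.004, and 0 of 6 passed. Kmt2a (MLL1), rearranged in acute leukemia, measured 4.25 and 3.91 log2 CPM in the vehicle libraries, 3.93 in both AG120 libraries, 3.73 and 3.67 with AZA and 3.79 and 3.47 with both. The 4 libraries with AZA lay below the 4 without it, by -0.34 ± 0.23 (limma adjusted p = 0.798). Kmt2a and Phc2 were the 2 members whose groups did not overlap for AZA, both lower, where 2.06% of all genes did not overlap and 0.944% did so on the lower side. Kmt2d, which acts at enhancers, stood at 5.24 and 5.69 in vehicle, 5.31 and 5.27 with AG120, 5.54 and 4.97 with AZA and 4.96 and 4.40 with both. Its difference between the combination and vehicle was -0.78 ± 0.31 (adjusted p = 0.179). Kmt2c, the other enhancer enzyme, Kmt2b and Setd1a had changes with both drugs of -0.22, 0.32 and 0.08.

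None of the shared COMPASS core genes passed in any comparison. Ash2l, which stimulates the methyltransferases, ranged from 6.75 to 7.07 log2 CPM over the 8 libraries, and its change with AG120 was 0.06 (95% interval -0.25 to 0.36). Wdr5, the scaffold of the core, ranged from 7.41 to 7.98, and Rbbp5, which binds the catalytic domain with Ash2l, from 5.27 to 5.97. Dpy30, which binds Ash2l, lay between 6.53 and 6.70 in 7 libraries and at 5.86 in AG120_AZA replicate 2. Of the Kmt2a partners, Men1 (menin) ranged from 5.94 to 6.66, with a change of 0.20 with AG120 (interval -0.19 to 0.59). Dot1l, which methylates a different lysine of histone H3 and is needed by Kmt2a-rearranged leukemia, ranged from 5.46 to 6.38, with a change of 0.18 (interval -0.26 to 0.62). Ash1l, another histone H3 methyltransferase, stood at 3.81 and 3.45 in vehicle and between 2.18 and 3.19 in the 6 treated libraries. Its differences from vehicle were -1.03, -1.01 and -0.63 with AG120, AZA and both, and none passed.

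AZA alone gave no change that passed in these genes. Limma called 0 of 39 members in AZA against vehicle, where 0.0% of all genes were called, and at an unadjusted p below 0.05 there were 0 of 39 against 3.51%. The groups did not overlap for 10 of 39 members and for 28.4% of all genes. The 4 smallest p-values belonged to Ash1l (-1.01), Phc3 (0.72), Kmt2b (0.42) and Bmi1 (0.37), each with an adjusted p of 1.00. Over both AG120 levels, 0 of 39 were called, again with 0.0% of all genes, and 3 of 39 (7.69%) had an unadjusted p below 0.05 against 6.19% of all genes. All 3 were lower, as were 2.73% of all genes. These were Rnf2 (-0.63 ± 0.24), Pcgf5 (-0.53 ± 0.23) and Phc2 (-0.39 ± 0.18), each at an adjusted p of 0.771. The alternative fits called no member with AZA either.

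In AG120 against vehicle limma called 0 of 39, where 0.578% of all genes were called. The counts at an unadjusted p below 0.05 were 4 of 39 (10.3%) against 13.1%, for Setd1b, Cbx7, Psip1 and Ash1l, all lower (6.25% of all genes). The groups did not overlap for 16 of 39 members and for 46.6% of all genes. In AG120_AZA against vehicle it called 0 of 39, where 3.02% of all genes were called. At an unadjusted p below 0.05 there were 8 of 39 (20.5%) against 21.4%, of which 6 were lower (10.5% of all genes) and 2, Bap1 and Ring1, higher (10.9%). Pcgf5, Cbx7, Rnf2 and Phf19 had the 4 smallest p-values, all on the lower side. The groups did not overlap for 21 of 39 members, where 51.1% of all genes did not. The median of the members was -0.24 and that of all genes 0.02, and the median of the members was -0.01 without AG120_AZA replicate 2. Without AG120_AZA replicate 1, Rnf2 and Cbx7 (-1.56, adjusted p = 0.0482) were past the threshold, but that fit rests on AG120_AZA replicate 2 alone, with its spread taken from the other groups. Without AG120_AZA replicate 2 Cbx7 was at -0.89 (adjusted p = 0.444).

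Adding one drug to the other gave no member that passed. In AG120_AZA against AG120 limma called 0 of 39 (0.0% of all genes), and 4 of 39 had an unadjusted p below 0.05 against 10.1%. All 4 were lower, as were 5.57% of all genes, and the groups did not overlap for 15 of 39 members and for 44.5% of all genes. These were Pcgf5, Rnf2, Rbbp7 (-0.60 ± 0.24, adjusted p = 0.453) and Phf19. Rbbp7, a histone chaperone subunit of PRC2, stood at 7.28 and 7.40 log2 CPM with AG120 and 7.02 and 6.47 with both. In AG120_AZA against AZA it called 0 of 39, where 2.26% of all genes were called, and 4 of 39 had an unadjusted p below 0.05 against 19.6%. These were Cbx7, Pcgf5, Mtf2 and Phf19, all lower (9.73% of all genes), and the groups did not overlap for 17 of 39 members and for 49.4% of all genes. In the interaction, 0 of 39 were called (0.0% of all genes) and 0 of 39 had an unadjusted p below 0.05 against 6.22%. The smallest p-values belonged to Rbbp7 (-0.72 ± 0.33) and Ash1l (1.40 ± 0.66), at an adjusted p of 0.794.

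**Figure D4:**
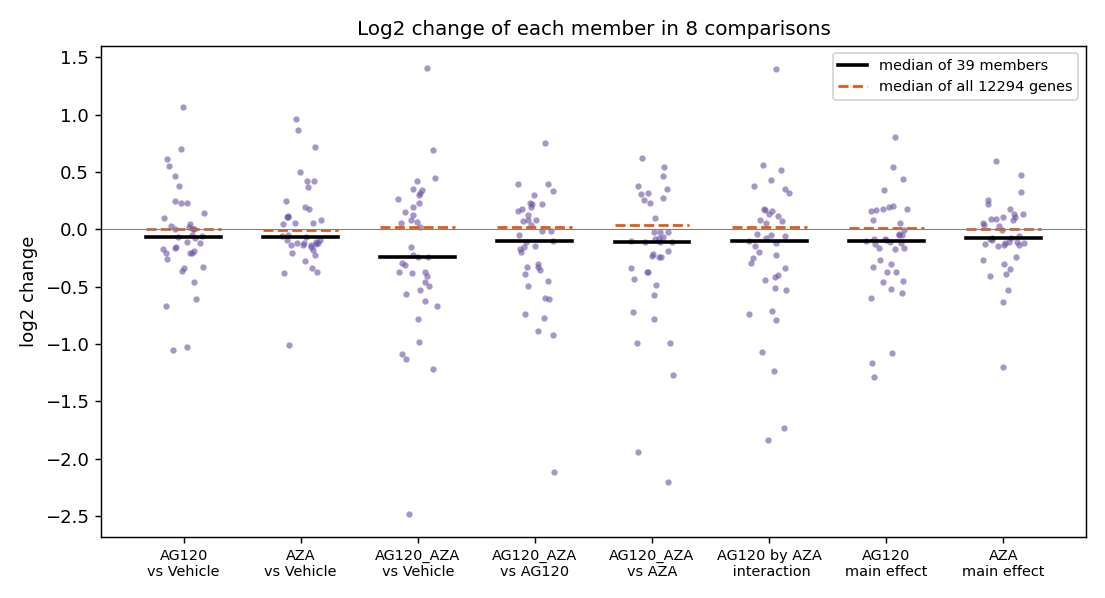
Log2 change (y axis) of each of the 39 members in the 8 comparisons (x axis); black bars are the median of the members and dashed bars the median of all 12294 genes. The median of the members is -0.24 in AG120_AZA against Vehicle, its lowest, and lies between -0.11 and -0.07 in the other comparisons.

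The pooled SD within groups had a median of 0.24 log2 units over the members and 0.37 over all genes. The members were also more abundant, with a median mean level of 5.25 log2 CPM (4.32 over all genes), and 7.69% of them lay under 10 steps in some library, where 21.3% of all genes did. Neither the smaller SD nor the smaller median absolute change of the members was compared at matched abundance. A pairwise 95% interval was 0.63 on either side for the median member and one of the main effects 0.44. The change needed for a call is larger than these half-widths, since p-values were adjusted over all genes.

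Other genes of the pathway were read from lists of further subunits. Of 24 measured PRC2 and PRC1 genes outside the 39, 0 passed with AG120 over both AZA levels, and the median log2 change was -0.12. Scmh1 (-0.60), Pcgf2 (2.94) and Cbx6 (-0.80) had the 3 smallest p-values. Pcgf2, a paralog of Bmi1, passed in AG120_AZA against AZA (5.02 ± 1.14, limma adjusted p = 0.0489). It stood at 2.75 and 2.85 log2 CPM with both drugs and at -3.63 and -0.82 with AZA, among the lowest values of the table. None of the 7 further PR-DUB genes, the 13 COMPASS and DOT1L genes or the 17 SWI/SNF genes passed for AG120 or AZA over both levels of the other drug. Among 6 lysine demethylases of histone H3, Kdm5b, which erases the mark laid down by COMPASS, rose with AG120. It was at 6.25 and 5.90 log2 CPM in the vehicle libraries, 7.06 and 6.63 with AG120, 7.31 and 6.71 with AZA and 7.74 and 8.12 with both. Over both AZA levels it rose by 0.85 ± 0.18 (limma adjusted p = 0.0214), and in the combination against vehicle by 1.86 ± 0.27 (adjusted p = 0.00564). The libraries with AZA alone also lay above the vehicle libraries. The ranges overlapped, at 5.90 to 7.31 without AG120 and 6.63 to 8.12 with it. With AZA over both AG120 levels 0 of the 6 demethylases were called, where 0.0% of all genes were. That count therefore does not set AZA apart from AG120 for Kdm5b. Its level was 5.90 to 7.06 log2 CPM without AZA and 6.71 to 8.12 with it. Kdm6a, which erases the PRC2 mark, had a change of -0.28 with AG120.

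Of 28 listed target genes of Polycomb and Kmt2a, 6 were measured, and none of the listed Hox genes was among them. Meis1, a homeobox partner gene that is also one of the 6 fallen stem and progenitor markers above, fell with AG120 over both AZA levels by 1.07 ± 0.25 (limma adjusted p = 0.0277). It stood at 7.30 to 8.37 log2 CPM without AG120 and at 6.07 to 6.98 with it. Cdkn2a, the tumour suppressor locus that Bmi1 and Cbx7 are known to repress, rose by 1.73 ± 0.38 (adjusted p = 0.0214). It stood at 3.89 and 2.68 in vehicle, 5.23 and 4.12 with AG120, 1.73 and 2.30 with AZA and 4.46 and 3.70 with both. One vehicle library lay above the lower combination library, so the ranges with and without AG120 overlapped. In AG120_AZA against vehicle the difference of Cdkn2a was 0.80 ± 0.53 (limma adjusted p = 0.424), which did not pass. A link between the changes of Cdkn2a and Cbx7 was not tested. Pbx3, another homeobox partner gene, and Igf2bp3, an RNA-binding protein gene, had changes of 1.35 and -0.25, and neither passed. Of 17 replication genes and 10 mitosis genes, 0 were called with AG120 over both AZA levels, with medians of 0.10 and 0.13.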

How the data were processed

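Gene expression was measured by QuantSeq 3′ RNA sequencing in 8 libraries, 2 in each of 4 groups taken from the sample titles. Per the submitters' processing notes, the tools included cutadapt 1.14, HISAT2 2.1.0, featureCounts, Subread 1.6.3, limma 3.42.2 and edgeR 3.28.1, with build mm10. The table deposited by the authors holds log2 CPM, and every library has the same maximum of 13.37, so depth is lost. No source used here names the annotation or the strand setting of the counting.

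Values were used as deposited, with no filter. Limma 3.58.1 in R 4.3.3 (lmFit, eBayes with a mean-variance trend) gave 5 pairwise contrasts and the interaction from a model of 4 group means, with 4 residual and 7.06 prior degrees of freedom. An additive model, with 5 and 6.85, gave the main effect of each drug over both levels of the other. The p-values are two-sided and Benjamini-Hochberg adjusted over all 12294 genes, and a gene is called at an adjusted p below 0.05. The code was tested on simulated data. The alternatives were no trend, vooma weights, a minimum mean of 5 log2 CPM, an added 1 CPM, only the groups compared, a replicate block and each library left out.

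The members and lists were chosen with earlier results of these data known. All measured members may be named, led by those called and by the 4 smallest p-values per comparison, and up to 4 genes of each other list. Of the members, 11 overlap another measured gene. The levels of overlapping genes were looked up only for Cbx7, Psip1, Rnf2 and Mtf2, after the values of these members were seen. All 39 members matched GENCODE M21.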

Additional observations from a re-analysis of the deposited data

How the results depend on the processing

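Of the counts of called members, that for AG120 over both AZA levels was 1, and it was 0 without a trend. When single libraries were left out it ran from 0 to 2: it was 0 without AG120 replicate 1 or AZA replicate 1, and 2 without AZA replicate 2. The counts for AG120_AZA against vehicle ran from 0 to 2 and for AG120_AZA against AZA from 0 to 1, in both cases above 0 without AG120_AZA replicate 1, where 1 combination library is left and is assumed to vary like the other groups. The other 5 comparisons called 0 members under every alternative run. No member followed through the alternatives changed direction.

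Leaving out single libraries, the median member change ran from -0.068 to -0.024 for AG120 against vehicle, from -0.070 to 0.073 for AZA against vehicle, from -0.24 to -0.0072 for AG120_AZA against vehicle and from -0.099 to -0.0063 for AG120_AZA against AG120. It ran from -0.27 to 0.019 for AG120_AZA against AZA, from -0.22 to 0.032 for the interaction, from -0.18 to -0.018 for AG120 over both AZA levels and from -0.13 to 0.0046 for AZA over both AG120 levels. With a minimum mean of 5 log2 CPM, which leaves 21 members, it was -0.31 for AG120_AZA against vehicle and -0.23 for AG120_AZA against AZA. So the sign of the median rests on single libraries in 4 of the 8 comparisons.

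Over all genes, AG120 over both AZA levels had 719 calls, 211 without a trend, 369 of the genes with a mean of at least 5 log2 CPM, and between 201 (without AG120 replicate 1) and 771 when single libraries were left out. For AG120_AZA against vehicle the 371 calls became 727 without AG120_AZA replicate 1 and 37 without replicate 2, and for AG120_AZA against AZA the 278 became 594 and 30. The shares of all genes given beside the members move with these counts. With the replicate block, 1 member passed for AG120 over both AZA levels (Cbx7, adjusted p = 0.0137) and 725 genes did. The labels give shared numbers only: the differences between replicates correlated across genes at -0.111 to 0.194 between groups. Depth limits Phf19, Ring1 and Cbx2 most.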
